A study of Mus musculus with 60 samples.

Results

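TNF-α given for 3 h to mouse ear fibroblasts held at 40 °C was followed by different levels of 1950 of 10122 measured genes, 19.3% of all. Of these, 1003 genes (9.91%) were higher and 947 (9.36%) were lower than in unstimulated cells at the same temperature. Most measured chemokines, NF-κB inhibitors and adhesion and effector genes rose, the monocyte chemoattractant Ccl2 going from 27.4 ± 9.62 to 1655 ± 133 FPKM (mean ± SD, n = 3 in each group). Of 23 measured cytosolic heat shock genes 9 fell, as did Herpud1, a gene of protein degradation at the endoplasmic reticulum. The comparison is made of 6 of the 60 libraries, chosen by temperature, cytokine and hour and by no measured value. FPKM, the unit of the deposited table, is the number of sequenced fragments per kilobase of transcript and per M (10 to the power of 6) mapped fragments.

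All libraries came from 1 line of ear fibroblasts taken from adult DKI mice, a line immortalised by repeated passage. Its cells carry fluorescent reporters on their own RelA and c-Rel, and the label of the line adds "GR NLS-iRFP-NLS". Every group shares these alleles, controls included, and the 3 replicates of a group are labelled as independent, so differences between mice were not sampled. The series holds 4 temperatures (24, 34, 37 and 40 °C) with unstimulated cells, cells given TNF-α and cells given IL-1β, each cytokine at 10 ng/mL and for either 1 h or 3 h. The unstimulated cells used here had spent 2 h at 40 °C when they were lysed, after a night at 37 °C. The cells with TNF-α for 3 h had spent 5 h at 40 °C, as had those with IL-1β for 3 h. Since no unstimulated group was held at 40 °C for 5 h, the 3 h of TNF-α and the 3 further hours of heat cannot be told apart in the comparison with unstimulated cells. Cells given TNF-α for 1 h had spent 3 h at 40 °C.

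Between replicates, Pearson's r across genes was 0.977 to 0.981 in the 2 groups compared. The depth of the 6 libraries, estimated from the steps between low FPKM values, was 5.8 to 7.15 M mapped fragments, with means of 6.53 M in unstimulated cells and 6.18 M after TNF-α. An FPKM of 1 in a transcript of 1 kilobase thus rests on 5.8 to 7.15 fragments, and values of a few FPKM are coarse. Of 10 fibroblast markers 8 were in the table, with a summed level of 8751 to 9725 FPKM in unstimulated cells and 7407 to 7888 FPKM after TNF-α. Pdgfra rose, and Col3a1 and Pdgfrb were among the 4 that fell. Markers of other cell types were low: Krt10 for keratinocytes lay at 0.84 to 1.9 and 2.54 to 4.13 FPKM, Cd68 and Lyz2 for macrophages summed to 2.12 to 5.41 and 2.37 to 4.65 FPKM, and Vwf for endothelium lay at 0.16 to 0.86 and 0.13 to 0.96 FPKM, in unstimulated and TNF-α-treated cells. Sox9, Comp and Col9a1, of cartilage, summed to 15.4 to 20 and 21.2 to 23.3 FPKM, and 1 of them rose. Des and Acta1 of muscle summed to 4.07 to 8.36 and 3.05 to 4.26 FPKM, Fabp4 of adipocytes lay at 8.21 to 11.2 and 5.63 to 7.68 FPKM, and Pmel of melanocytes at 0.08 to 0.67 and 0.34 to 1.05 FPKM. No call was made in those last 3 sets, and no neutrophil marker was in the table. The part of these markers in the results was not tested, and in such bulk samples fewer cells of a type and less RNA per cell cannot be told apart. Rn7s1, Rn7s2, Rn7sk, Rpph1 and Rmrp, abundant noncoding RNAs, made up 46.3 to 50.4% of the summed FPKM in unstimulated cells and 51 to 52.2% after TNF-α. After a trimmed-mean scaling between libraries 1965 genes were called.

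TNF-α binds 2 receptors, of which TNF receptor 1 activates the IκB kinase complex through adaptor proteins. The kinase marks IκB proteins for destruction, and the NF-κB dimers they held in the cytoplasm enter the nucleus and bind κB sites in DNA. Target genes include the IκB proteins and the ubiquitin-editing enzyme A20, which restrain the pathway, and, in fibroblasts, chemokines and adhesion molecules that bring in leukocytes. Heat, for its part, frees heat shock factor 1 from chaperones, and the factor binds heat shock elements in the genes of chaperones until these have accumulated.

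The start regions of 4 genes that rose are shown because each holds a κB motif and because 3 of them belong to 1 chemokine family on chromosome 5. The motif searched was GGGANNTTCC, on both strands, in windows of 250 bases before to 50 bases after each gene's start (RefSeq, GRCm38.p6). Capitals mark the match. Of 32851 such windows 482, or 1.47%, held it. Of 58 named genes that rose, 43 had an entry and 7 of these (16.3%) held it: Csf1, Cxcl1, Cxcl2, Cxcl3, Gbp2, Il6 and Nfkbia. None of the 33 named genes that fell and had an entry held it. In Cxcl1, Cxcl2 and Cxcl3 the same 11 bases matched, starting at positions -71, -97 and -73 from the start of the gene. In Nfkbia the match began at position -29. A gene counted if any of its windows matched, so the gene share and that of all windows are in unlike units. The named genes also came in part from lists of inflammatory genes, so nothing is read from the excess. A match describes letters and shows no binding.
Nfkbia: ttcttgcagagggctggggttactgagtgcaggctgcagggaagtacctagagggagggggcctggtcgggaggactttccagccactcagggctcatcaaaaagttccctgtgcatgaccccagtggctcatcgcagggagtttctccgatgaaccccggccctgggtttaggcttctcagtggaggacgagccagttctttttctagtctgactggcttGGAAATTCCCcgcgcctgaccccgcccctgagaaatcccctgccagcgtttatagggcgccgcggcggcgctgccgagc
Cxcl1: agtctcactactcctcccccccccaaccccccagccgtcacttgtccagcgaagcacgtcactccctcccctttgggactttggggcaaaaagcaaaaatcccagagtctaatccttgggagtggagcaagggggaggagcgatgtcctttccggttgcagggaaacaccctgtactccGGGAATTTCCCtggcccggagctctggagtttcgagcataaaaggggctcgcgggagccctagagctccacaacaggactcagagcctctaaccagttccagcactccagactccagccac
Cxcl2: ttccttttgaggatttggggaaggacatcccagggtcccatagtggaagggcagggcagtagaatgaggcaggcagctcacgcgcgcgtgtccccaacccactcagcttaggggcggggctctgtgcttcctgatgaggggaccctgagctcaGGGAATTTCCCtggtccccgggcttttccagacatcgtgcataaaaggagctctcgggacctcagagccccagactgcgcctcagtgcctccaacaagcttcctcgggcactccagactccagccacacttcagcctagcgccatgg
Cxcl3: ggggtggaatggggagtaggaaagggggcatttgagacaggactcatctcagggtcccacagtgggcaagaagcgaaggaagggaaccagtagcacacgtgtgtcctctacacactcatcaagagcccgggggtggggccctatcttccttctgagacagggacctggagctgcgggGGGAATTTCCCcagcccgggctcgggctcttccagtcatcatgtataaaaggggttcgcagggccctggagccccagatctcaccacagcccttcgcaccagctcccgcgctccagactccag

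The NF-κB subunits rose, and so did most of their inhibitors. All 3 subunits of the list were higher, with a median log2 change of 1.72 against -0.004 over all genes. Changes here and below are differences of log2(FPKM + 1), which understate the change of low genes. They carry the standard error (SE) of a model fitted to each gene over all 60 libraries, with variances moderated across genes. Relb, which acts in the slower, non-canonical arm, stood at 3.55, 6.15 and 3.28 FPKM in the unstimulated libraries and at 60.76, 58.38 and 62.26 after TNF-α. The groups lay far apart, as those of 33.6% of all genes did not overlap at all. The log2 change of Relb was 3.57 (SE 0.13, adjusted p = 1e-25). Nfkb1, the precursor of p50, rose from 26 ± 2 to 88.1 ± 1.82 FPKM (log2 change 1.72, SE 0.11, adjusted p = 1.9e-17). Rel, which encodes c-Rel, had 2.54, 2.58 and 2.77 FPKM and then 5.72, 4.82 and 5.51, a log2 change of 0.80 (SE 0.09, adjusted p = 4.6e-09). Its level stayed low beside the other subunits. Rela and Nfkb2 were not analysed here.

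Of 15 inhibitors and feedback genes 11 were measured, 8 rose and none fell, with a median log2 change of 1.03. Nfkbia, which encodes IκBα, had 43.21, 34.43 and 24.06 FPKM without and 365.19, 340.93 and 329.9 with TNF-α. Every TNF-α library lay above every unstimulated one, and the log2 change was 3.35 (SE 0.13, adjusted p = 1e-25). Tnfaip3, which encodes A20, went from 6.74, 5.69 and 7.8 FPKM to 82.07, 81.53 and 75, by 3.39 (SE 0.11, adjusted p = 1.6e-28). The A20-binding protein gene Tnip1 (2.87) and Bcl3 (2.55), a nuclear IκB relative, rose as well. At 3 h the transcripts of both the NF-κB proteins and their brakes were thus high together. Among 19 measured genes of TNF receptors and signalling, 8 rose and 1 fell. Traf1, an adaptor that binds receptors of the TNF family, was listed at 0, 0 and 0.18 FPKM and then at 11.41, 10.98 and 12.66. Ripk2, a kinase downstream of NOD receptors, rose 2.09 on the log2 scale, Traf3 1.07 and the second receptor, Tnfrsf1b, 0.77 (adjusted p = 1.5e-07). Tnfrsf1a, the first receptor, was the one that fell, by 0.35 (adjusted p = 0.0016), and is named because of that. Of 9 measured survival genes 6 rose, with a median of 0.61. They include the inhibitors of apoptosis Birc3 (2.89) and Birc2 (1.82), the stress sensor Gadd45b (1.54) and the early response gene Ier3 (1.05). Birc3 was uneven without TNF-α, at 5.78, 1.5 and 1.52 FPKM.

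**Figure D1:**
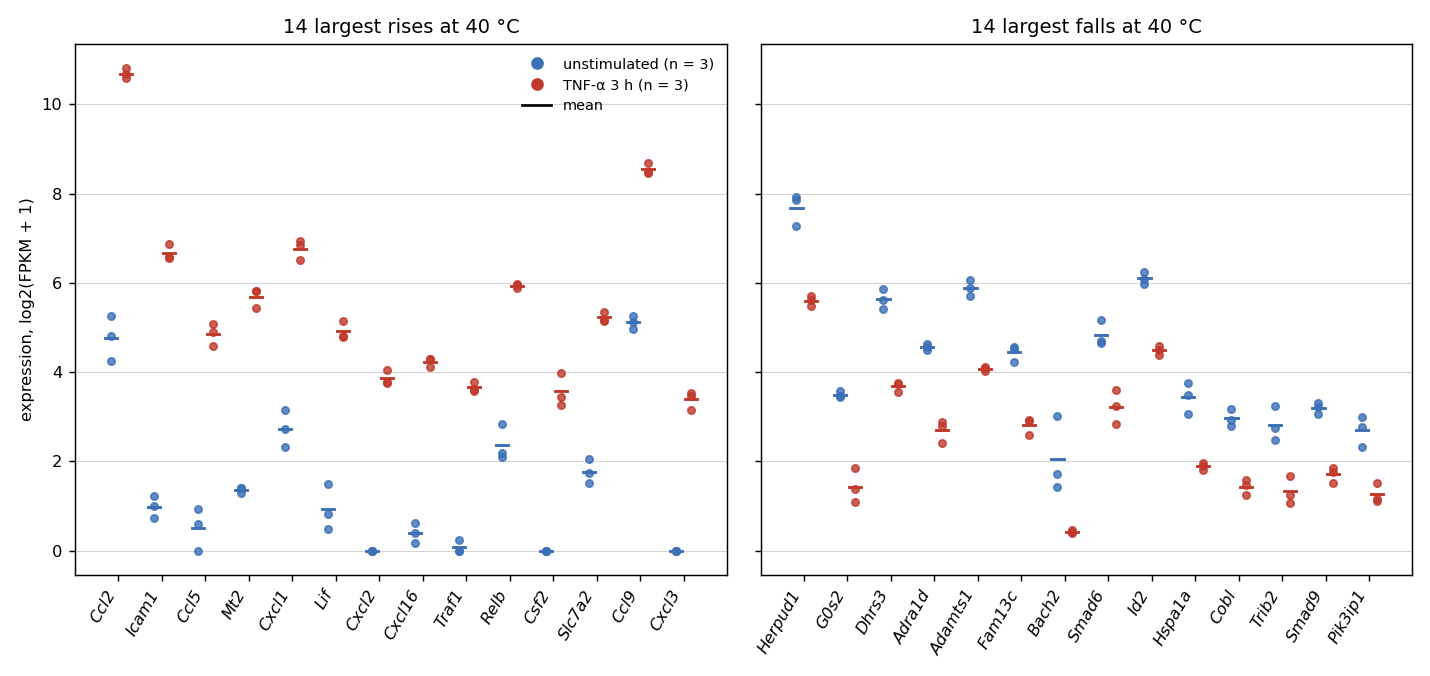
Expression on the y axis, as log2(FPKM + 1), of the 14 genes with the largest rises and the 14 with the largest falls after 3 h of TNF-α at 40 °C, ordered by size of change. Each point is 1 of 3 libraries per group and each bar a mean; the groups do not overlap in any of these genes because the choice required it, and Ccl2 and Icam1 stand out with log2 changes of 5.92 and 5.68.

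Chemokines formed the group with the largest changes. Of 21 genes 14 were measured, 12 rose and 1 fell, with a median log2 change of 3.36. Ccl2 stood at 37.22, 17.99 and 27.11 FPKM in unstimulated libraries and at 1795.13, 1639.53 and 1530.25 after TNF-α, a log2 change of 5.92 (SE 0.17, adjusted p = 4.4e-30). The lowest treated library lay far above the highest untreated one. Ccl5, which draws T cells, had 0.51, 0.91 and 0 FPKM and then 23.13, 28.84 and 33.02, a log2 change of 4.35 (SE 0.37, adjusted p = 4.5e-13). The neutrophil attractant Cxcl1 rose from 7.96, 5.59 and 3.99 FPKM to 113.68, 122.2 and 90.77, by 4.03 (SE 0.24, adjusted p = 5.8e-18). Its relatives Cxcl2 and Cxcl3 were listed at 0 in all 3 unstimulated libraries, as was Cxcl10, so no fold is given for them. Cxcl2 reached 15.67, 12.78 and 12.44 FPKM (adjusted p = 1.3e-14) and Cxcl3 10.66, 7.91 and 10.09 FPKM (adjusted p = 3.9e-16). These 2 genes share the κB motif printed above with Cxcl1. Ccl9 went from 33.9 ± 3.7 to 374 ± 34.1 FPKM, and Cxcl16, a chemokine anchored in the membrane, from 0.327 ± 0.206 to 17.8 ± 1.31 FPKM. Cxcl12, which retains stem cells and lymphocytes in their tissue, was the chemokine that fell (log2 change -0.50, adjusted p = 0.00066), and is named for that.

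Of 9 measured cytokines and colony-stimulating factors 8 rose, with a median of 1.22. In a model of the 2 groups alone 5 did. Lif, a cytokine of the interleukin-6 family, had 0.77, 1.81 and 0.41 FPKM and then 34.49, 27.27 and 26.58, a log2 change of 3.98 (SE 0.27, adjusted p = 3.9e-16). Csf2, which encodes the granulocyte and macrophage growth factor GM-CSF, was listed at 0 in every unstimulated library and at 14.91, 8.58 and 9.94 FPKM after TNF-α (adjusted p = 7.9e-17). Csf1, a growth factor of macrophages, was abundant in both groups, with 370.8, 354.17 and 415.33 FPKM before and 904.97, 842.7 and 1022.75 after (log2 change 1.28, SE 0.09, adjusted p = 9.9e-16). Il6 rose less, from 5.57, 3.93 and 2.86 FPKM to 12.83, 10.42 and 7.25 (log2 change 1.13, SE 0.25, adjusted p = 0.00074). Il1rn, the antagonist of the IL-1 receptor, changed by 2.12 (SE 0.54, adjusted p = 0.00273) from uneven unstimulated libraries of 8.12, 12.8 and 2.3 FPKM. Without the third of these its change was 1.53 and was not called.

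Among 12 measured adhesion and inflammatory effector genes 8 rose and none fell, with a median of 1.01. Icam1, a ligand of leukocyte integrins, stood at 0.99, 0.67 and 1.34 FPKM and then at 92.59, 115.94 and 95.29, a log2 change of 5.68 (SE 0.20, adjusted p = 3.2e-26). It went from near the limit of detection to a level well within range. Vcam1, the second adhesion molecule, rose from 20.45, 19.42 and 19.78 FPKM to 160.68, 169.97 and 176.42 (log2 change 3.02, SE 0.11, adjusted p = 6.9e-26). Complement C3 (1.89) and the pentraxin Ptx3 (1.68) followed. The 16 measured interferon-stimulated genes were mixed, with 7 higher, 1 lower and a median of 0.47. Irf1, a transcription factor, went from 9.22, 9.69 and 7.82 FPKM to 38.91, 43.95 and 36.47 (log2 change 2.04, adjusted p = 1.3e-12). The guanylate-binding protein Gbp2 (2.58), the RNA sensor Ddx58 (1.89) and the GTPase Ifi47 (0.97) rose too, and Ifit2 was the member that fell (-0.61). No member was called lower without the first TNF-α library or in a model of the 2 groups alone. Of 9 measured antigen presentation genes 5 rose, with a median of 0.88: Tap1 and Tap2, which carry peptides into the endoplasmic reticulum, the proteasome genes Psmb10 and Psme2, and Tapbpl. Tap2, at 7.14, 5.28 and 4.98 FPKM and then 13.85, 17.39 and 18.7, changed most (log2 change 1.38, adjusted p = 3.9e-11). Outside the lists, the zinc-binding metallothionein Mt2 rose from 1.65, 1.46 and 1.64 FPKM to 55.07, 42.11 and 55.24 (log2 change 4.32, SE 0.25, adjusted p = 1.1e-18). The arginine transporter Slc7a2 rose by 3.46.

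**Figure D2:**
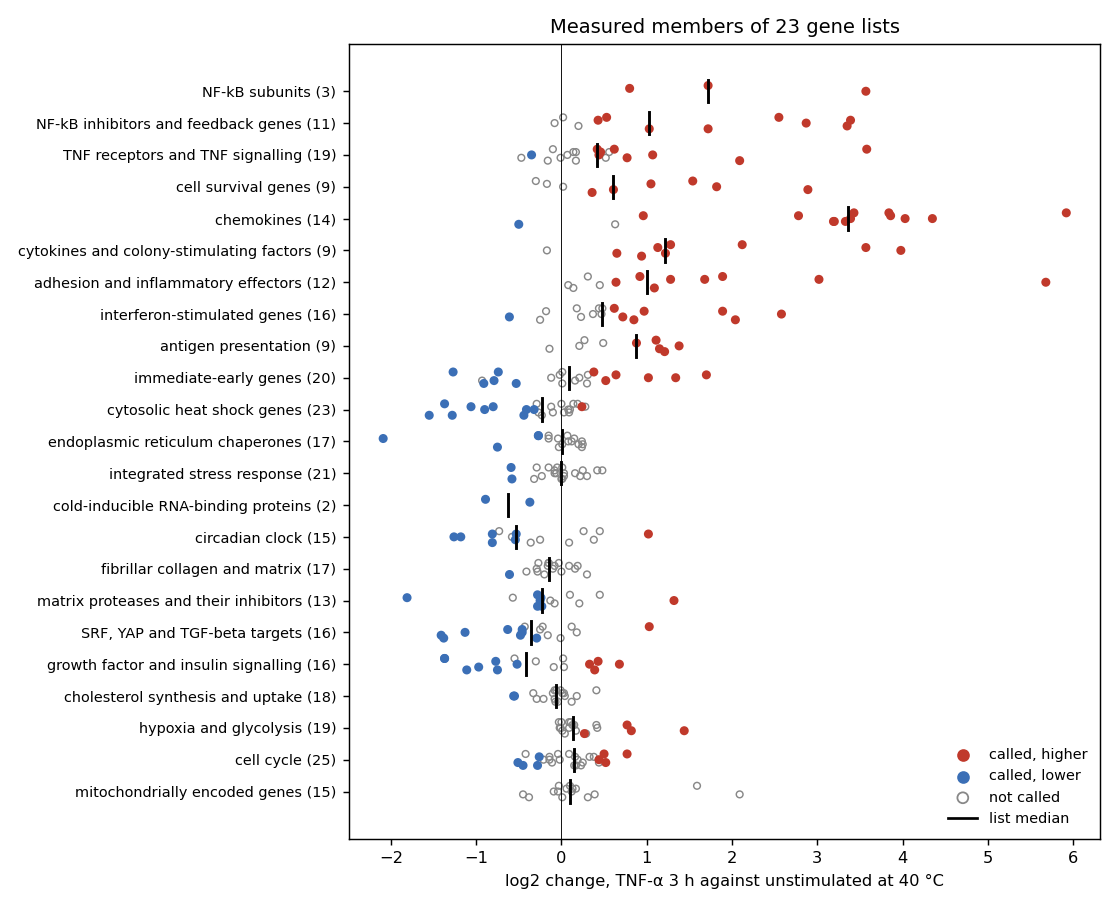
Log2 change of each measured member of 23 gene lists (x axis, difference of log2(FPKM + 1) between TNF-α for 3 h and unstimulated cells at 40 °C), with called members filled, others open, the number of members after each name and the list median as a bar. Chemokines lie furthest to the right with a median of 3.36, while heat shock, clock and growth factor genes have medians below 0.

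Cytosolic heat shock genes moved the other way. Of 23 measured members 9 fell and 1, Hspa4, rose, with a median log2 change of -0.23 and a range of -1.55 to 0.28. In a model of the 2 groups alone none was called higher. Hspa1b, an inducible Hsp70 gene, stood at 194.17, 177.91 and 247.6 FPKM in unstimulated cells and at 87.03, 86.69 and 63.54 after TNF-α (log2 change -1.37, SE 0.12, adjusted p = 1.8e-12). Its near copy Hspa1a had 10.23, 7.39 and 12.62 FPKM and then 2.72, 2.53 and 2.9 (log2 change -1.55, SE 0.20, adjusted p = 6.1e-08). The treated libraries of both lay below all untreated ones. How the authors' counting shares fragments between the 2 copies is uncertain, so their separate levels are uncertain as well. Dnajb4, a co-chaperone of Hsp70, went from 57.78, 58.62 and 53.98 FPKM to 22.48, 25.09 and 21.1 (log2 change -1.28, SE 0.12, adjusted p = 8e-12). Bag3, which hands Hsp70 clients to autophagy, fell by 1.06 (SE 0.10, adjusted p = 2.7e-11), and Dnajb1 by 0.90 (SE 0.12, adjusted p = 3.9e-08). The small heat shock protein gene Hspb1 was not called, at 623.19, 484.22 and 994.54 FPKM and then 598.32, 488.07 and 830.72. Neither were Hsp90aa1 and Hsp90ab1. The falls thus covered part of the list.

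Start regions of Hspa1a, Hspa1b and Bag3 are shown because these genes fell together and each holds a heat shock element, here the letters GAANNTTC on either strand, in capitals. It was present in 7.86% of all windows, in 4 of the 33 named genes that fell (12.1%: Bag3, Dhrs3, Hspa1a and Hspa1b) and in 2 of the 43 that rose (4.65%: Jun and Rel). Genes counted if any of their windows matched, so the gene shares and that of all windows are again in unlike units. The windows of Hspa1a and Hspa1b share 296 of 300 bases (98.7%), so their matches are not independent of each other. In both the match began at position -104, and in Bag3 at position 43, after the start of the gene. As above, a match shows no binding.
Hspa1a: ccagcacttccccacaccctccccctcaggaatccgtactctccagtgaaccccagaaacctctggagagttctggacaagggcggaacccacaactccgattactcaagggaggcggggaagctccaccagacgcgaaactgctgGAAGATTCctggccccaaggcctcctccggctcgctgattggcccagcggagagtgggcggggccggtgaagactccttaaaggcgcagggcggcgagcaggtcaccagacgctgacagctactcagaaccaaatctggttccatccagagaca
Hspa1b: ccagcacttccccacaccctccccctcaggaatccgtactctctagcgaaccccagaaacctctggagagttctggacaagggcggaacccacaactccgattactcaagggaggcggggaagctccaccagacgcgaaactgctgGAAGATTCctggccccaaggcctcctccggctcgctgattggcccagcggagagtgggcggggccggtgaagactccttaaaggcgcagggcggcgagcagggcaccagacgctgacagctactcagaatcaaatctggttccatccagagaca
Bag3: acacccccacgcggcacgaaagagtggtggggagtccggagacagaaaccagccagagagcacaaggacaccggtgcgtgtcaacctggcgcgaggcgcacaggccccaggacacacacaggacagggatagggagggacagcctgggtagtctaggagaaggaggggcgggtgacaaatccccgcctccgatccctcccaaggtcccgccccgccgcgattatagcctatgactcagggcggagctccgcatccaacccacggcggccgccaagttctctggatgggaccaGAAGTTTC

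Genes of the endoplasmic reticulum showed 1 large fall. Herpud1 had 231.66, 153.79 and 242.36 FPKM in unstimulated cells and 50.82, 48.17 and 44.02 after TNF-α (log2 change -2.09, SE 0.20, adjusted p = 2.5e-11), the largest fall among named genes. Of 17 measured genes of chaperones, protein degradation and stress sensing in this compartment 4 fell and none rose, with a median of 0.01. The others were Dnajb9 (-0.75, adjusted p = 0.00032), Atf6 (-0.27) and Sel1l (-0.27, adjusted p = 0.0492). Sel1l lost its call in 12 alternative fits, among them median-ratio scaling and a model of the 2 groups alone, and Atf6 in 5. Without the first TNF-α library, or without the third unstimulated one, 2 of the list were called lower, and without the latter 4 were called higher. Hspa5, the main chaperone there, was not called, at 907.4, 658.16 and 1113.07 FPKM and then 1191.9, 1077.96 and 785.31, with groups that overlap. Its second unstimulated library was the lowest, as it was for Herpud1 and Hspb1. The letters of the ER stress element, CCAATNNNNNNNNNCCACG, were in 0.119% of windows and in none of the 43 rising or 33 falling named genes with an entry. Of 21 measured genes of the integrated stress response, Ddit3 (-0.59, adjusted p = 0.0186), which encodes CHOP, and Chac1 (-0.58, adjusted p = 0.0397), an enzyme of glutathione breakdown, were lower and none was higher, with a median of -0.00. Both calls were lost when certain single libraries were left out. Without the first unstimulated library, for example, none of the list was called lower and 1 was called higher, and without the first TNF-α library 1 was called in each direction. Without the third TNF-α library none was lower. Lower calls in this list were about as common as over all genes (9.36%), so nothing is read from their number.

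Immediate-early genes split, with 6 of 20 measured members higher, 5 lower and a median of 0.08. Egr1, a zinc finger factor, rose from 11.83, 8.92 and 7.22 FPKM to 37.15, 32.85 and 26.53 (log2 change 1.70, SE 0.30, adjusted p = 3.2e-05). Jun, a subunit of AP-1, rose from 18.92, 22.54 and 15.37 FPKM to 48.99, 51.04 and 47.28 (log2 change 1.34, SE 0.11, adjusted p = 2.5e-13). Fos, its partner, was at 12.98, 12.29 and 5.39 FPKM and then at 3.88, 3.72 and 6.5, and was not called (log2 change -0.93, SE 0.35, adjusted p = 0.0589). The 2 partners of AP-1 thus had changes of opposite sign, of which that of Jun was called. Arc fell by 1.27 (adjusted p = 1.4e-06), and Klf2, Dusp4, Klf4 and Per1 were the other members that fell. Per1 belongs to the clock list too, where 6 of 15 measured members fell and 1 rose, with a median of -0.53. Bhlhe41 (-1.26, adjusted p = 6.3e-06), a repressor in the clock, Dbp (-1.18, adjusted p = 0.00251), an output factor, and Cry2 (-0.81, adjusted p = 0.00015) were lower. Bhlhe40, the closest relative of Bhlhe41, was the one that rose (1.02, adjusted p = 7.4e-09), from 30.99, 28.25 and 29.68 FPKM to 59.78, 53.53 and 71.91. The cold-inducible RNA-binding protein genes Cirbp (-0.89, adjusted p = 0.00344) and Rbm3 (-0.37, adjusted p = 0.0128) were lower, and each lost its call in some leave-one-out fits.

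Genes of growth factor and TGF-β signalling included further falls. Of 16 measured genes of growth factor and insulin signalling 7 fell and 4 rose, with a median of -0.41. Irs2, an adaptor of the insulin receptor, had 12.97, 12.61 and 13.35 FPKM and then 4.38, 4.01 and 4.92 (log2 change -1.37, SE 0.11, adjusted p = 4.3e-14). Its relative Irs1 fell by 1.11, the receptor inhibitor Spry1 by 1.37, and the PDGF receptor gene Pdgfrb by 0.97 (adjusted p = 4.3e-08). The 4 that rose were Fgf7, Pdgfa, Spred1 and Pdgfra, and a model of the 2 groups alone called 2 higher. Among 16 measured targets of SRF, YAP and TGF-β 8 fell and 1 rose, with a median of -0.36. Thbs1, a matrix glycoprotein that activates TGF-β, went from 726.84, 636.76 and 806.6 FPKM to 278.02, 240.12 and 298.87 (log2 change -1.41, SE 0.17, adjusted p = 5.9e-09). The ligand gene Tgfb3 fell by 1.13 (adjusted p = 4.6e-12) while Tgfb1 rose by 1.03 (adjusted p = 1.5e-06). Edn1, which encodes endothelin, fell by 1.38. Smad6 and Smad9, of the BMP pathway, and Id2, a target of it, were among the 14 largest falls at -1.61, -1.48 and -1.61. Id2 stood at 66.9, 74.87 and 62.2 FPKM and then at 19.95, 23.09 and 21.74.

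Matrix genes themselves changed by small amounts, mostly downward. Of 17 measured collagen and matrix genes Col3a1 was lower (-0.62, adjusted p = 2.1e-07) and none was higher. The median was -0.15 and 13 changes were negative. All TNF-α libraries lay below all unstimulated ones in 5 of the 17, against 16.6% of all genes. The call of 1 became 2 without the first TNF-α library or without the first or second unstimulated library. It became 3 in a model of the 2 groups alone, and 4 with the replicate block, which also called 1 higher. Among 13 proteases and inhibitors 6 were lower and 1 higher, with 5 of the falls at or within -0.28. The exceptions were the proteoglycan-cutting enzymes Adamts1, which fell from 58.21, 51.05 and 65.76 FPKM to 16.06, 16.26 and 15.24 (log2 change -1.81, SE 0.13, adjusted p = 8.2e-16), and Adamts4, which rose by 1.32 (adjusted p = 1.4e-07). Without the second TNF-α library, or without the first unstimulated one, 3 of the list were lower. Other large falls were in Dhrs3, a retinal reductase (-1.96, adjusted p = 2.9e-18), G0s2, an inhibitor of fat breakdown (-2.06, adjusted p = 1.2e-08), Adra1d, an adrenergic receptor (-1.86), and Fam13c (-1.64). Bach2 was at 1.68, 7.09 and 2.31 FPKM and then at 0.34, 0.39 and 0.31, so its size of -1.63 rests partly on 1 library. Cobl (-1.53), Trib2 (-1.49) and Pik3ip1 (-1.43) completed the 14.

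The remaining lists changed in few members. Of 19 measured genes of hypoxia and glycolysis 4 rose and none fell, with a median of 0.13. Hk2, a hexokinase, rose from 14.36, 16.3 and 15.21 FPKM to 35.63, 44.67 and 49.93 (log2 change 1.44, adjusted p = 2e-12), the glucose transporter gene Slc2a1 by 0.82 and P4ha2, a collagen hydroxylase, by 0.77. Of 18 cholesterol genes Mvd (-0.56) and Dhcr7 (-0.55) were lower, neither in every leave-one-out fit. This count is near the 9.36% of all genes that were lower, so nothing is read from it. Of 25 cell cycle genes 4 were higher and 4 lower, with a median of 0.15. The lower ones numbered 1 without the third TNF-α library, and 2 without the first TNF-α library or without the second or the third unstimulated one. Ccnd1 (0.52, adjusted p = 1.8e-05), the cyclin of early G1, was higher and the nucleotide reductase Rrm2 (-0.51, adjusted p = 0.00013) lower. Aurka and Kif23, of mitosis, were higher, but were not called when the third unstimulated library was left out, which left 1 of the list higher. Without the second or the third TNF-α library 2 were higher. None of 15 mitochondrially encoded genes was called by limma, and 0 had an unadjusted p below 0.05. In a model of the 2 groups alone 1 of them was called higher, with or without the replicate block.

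**Figure D3:**
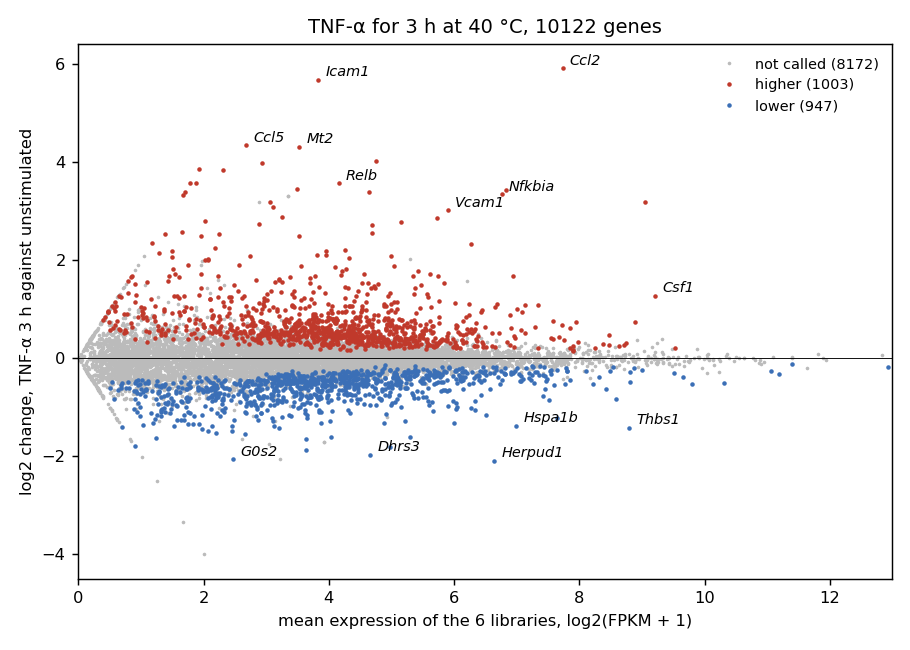
Log2 change after 3 h of TNF-α at 40 °C (y axis) against the mean log2(FPKM + 1) of the 6 libraries (x axis), 1 point per gene. The 1003 genes called higher reach log2 changes of 5.92, and the 947 called lower stop at -2.09 among named genes; uncalled points with large changes are genes whose replicates differ widely.

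Over all genes, 197 of the calls were at least 2-fold higher and 94 at least 2-fold lower on the scale of FPKM + 1, and the median size of a called change was 0.548 on the log2 scale. On this scale the larger changes were thus more often rises. Genes with hardly any signal in unstimulated cells could rise 2-fold but not fall 2-fold on it, so the counts are not on an equal footing. Leaving out any 1 of the 6 libraries gave 1567 to 1656 calls.

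The response was next set against that at 37 °C, the temperature at which the cells were grown. The 2 comparisons use separate control libraries, each with 3 h less at its temperature than the cells with TNF-α. Their difference was tested as an interaction term, in which TNF-α and those hours cannot be told apart. It was called for 31 of 10122 genes, 0.306%, of which 10 were positive (0.0988%) and 21 negative (0.207%). A model of only these 4 groups called 4 genes. Among 102 measured genes of the 9 inflammatory lists, from NF-κB subunits to antigen presentation, none was called by limma. Of the 102, 15 had an unadjusted p below 0.05 in limma, a larger share than the 9.25% over all genes. With 5 FPKM added in place of 1, Gbp2 was called. The median difference over the 102 genes was 0.02. Ccl2 went from 25.2 to 1491 FPKM at 37 °C, and its difference was 0.06 (95% confidence interval -0.42 to 0.53). For Nfkbia, at 30.8 and 343 FPKM at 37 °C, it was -0.11 (interval -0.46 to 0.25). For Relb the interval ran from -0.28 to 0.49, and for Icam1 from -0.88 to 0.28. Larger differences of these genes in either direction lie outside these intervals, and smaller ones within them are not excluded. Among the 102, the difference of Gbp2, which rose from 0.37 to 18.4 FPKM at 37 °C, was -1.12 (interval -1.92 to -0.31, adjusted p = 0.299).

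The 31 genes came chiefly from other groups. Of the heat shock list 6 were called, all negative: Hspa1a, Hspa1b, Hspb8, Dnajb1, Dnajb4 and Bag3. Hspa1b stood at 36.17, 39.44 and 35.29 FPKM in unstimulated cells at 37 °C and at 44.15, 46.92 and 45.62 after TNF-α, a difference between temperatures of -1.67 (SE 0.17, adjusted p = 1.8e-08). At 40 °C its unstimulated level was the higher one, with a mean of 207 against 37 FPKM, and the level after TNF-α, with a mean of 79.1 FPKM, remained above both values at 37 °C. Dnajb4 differed by -1.05 (SE 0.17, adjusted p = 0.00026). Its level of 22.9 FPKM after TNF-α at 40 °C lay close to the 23.8 and 20.1 FPKM at 37 °C. Herpud1 rose at 37 °C from a mean of 51.6 to 70.2 FPKM, and its difference was -2.52 (SE 0.29, adjusted p = 1.5e-07). Ddit3 went from 8.92, 10.41 and 7.35 to 16.86, 22.19 and 18.91 FPKM at 37 °C, a difference of -1.63 (SE 0.26, adjusted p = 0.00026), and Chac1 differed by -1.61 (SE 0.29, adjusted p = 0.00143). Of the 21 measured genes of the integrated stress response 3 were called, all negative, against 0.207% of all genes. The differences of 20 of the 21 were negative, with a median of -0.46. In limma 15 of the 21 had an unadjusted p below 0.05, against 9.25% over all genes. Atf3, a stress-induced factor, had 2, 1.91 and 2.28 FPKM and then 13.01, 11.63 and 12.59 at 37 °C, against 6.4, 4.26 and 3.85 and then 5.6, 6.07 and 6.65 at 40 °C. Its groups overlap at 40 °C and lie apart at 37 °C, a difference of -1.82 (SE 0.29, adjusted p = 0.00018).

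Egr1 had the largest positive difference, 3.36 (SE 0.43, adjusted p = 2.6e-06). At 37 °C it was at 63.76, 68.85 and 17.15 FPKM without and at 15.88, 10.45 and 12.39 with TNF-α, the reverse of its order at 40 °C. The unstimulated libraries at 37 °C were uneven, and the third was the low one. Fhod1 (0.82, adjusted p = 0.00201), L3mbtl2 (0.81, adjusted p = 0.00817), Zfp317 (0.73, adjusted p = 0.0181) and Gramd4 (0.68, adjusted p = 0.0289) had the next positive terms among named models. Of these L3mbtl2, Zfp317 and Gramd4 each lost the call when any of several single libraries was left out, and Zfp317 and Gramd4 also after trimmed-mean scaling. The count of 10 positive terms was 6 without the second unstimulated library at 37 °C and 0 in the model of the 4 groups alone. G0s2 was called at -1.62 (adjusted p = 0.0166), but likewise not when any of several single libraries was left out. In a model of the 4 groups alone 4 genes were called in place of 31, and Egr1, Ddit3, Chac1, Bag3, Dnajb1 and Hspa1a were not among them. The share of positive terms, 32.3%, was 18.4% after trimmed-mean scaling and 20.5% after median-ratio scaling.

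**Figure D4:**
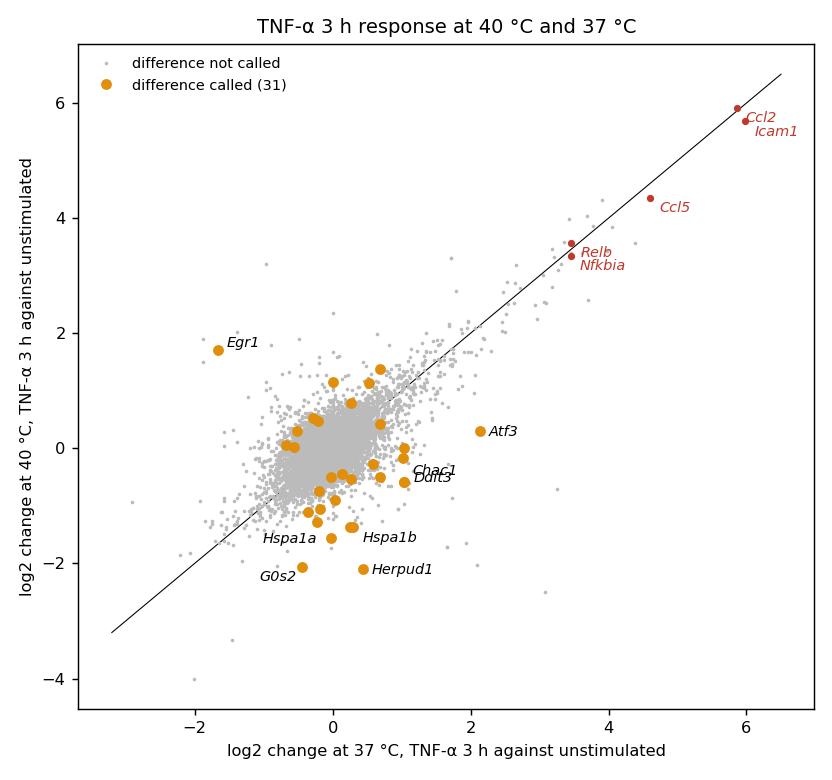
Log2 change after 3 h of TNF-α at 40 °C (y axis) against that at 37 °C (x axis), 1 point per gene, with the diagonal of equal change. The 31 genes whose difference was called lie off the diagonal, mostly below it, as Herpud1 (-2.52) and Hspa1b (-1.67) do, while Ccl2, Icam1, Ccl5, Relb and Nfkbia, not called, lie near it.

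Against the response at 34 °C, 209 genes differed, 2.06%, with 131 positive (1.29%) and 78 negative (0.771%) terms. A model of only these 4 groups called 64. Without the third TNF-α library at 40 °C 118 were called, and 127 without the first unstimulated library at 34 °C. The split of 62.7% positive became 39.2% and 41.4% after trimmed-mean and median-ratio scaling, so the direction of the whole set depends on the scaling. Of the 102 inflammatory genes 5 were called: Tnfaip3, Csf2 and Ccl20 with smaller and C3 and Tap2 with larger terms at 40 °C. Tnfaip3 rose from 5.66 ± 0.55 to 118 ± 5.42 FPKM at 34 °C, against 79.5 ± 3.94 FPKM after TNF-α at 40 °C (difference -0.78, SE 0.15, adjusted p = 0.00138). C3 reached 26.4 ± 0.826 FPKM at 34 °C and 63.1 ± 7.49 at 40 °C (difference 1.15, SE 0.30, adjusted p = 0.0285). A feedback gene and a complement gene thus differed in opposite directions. Csf2, listed at 0 in unstimulated cells at both temperatures, reached 25.5 ± 2.71 FPKM at 34 °C and 11.1 ± 3.33 at 40 °C (adjusted p = 0.0482). Ddit3 rose at 34 °C from 16.6 to 39.5 FPKM and differed by -1.79 (adjusted p = 4e-05), and 7 heat shock genes had negative terms. Both comparisons use the same 6 libraries at 40 °C, so both terms include the 3 further hours of heat.

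Against TNF-α for 1 h at 40 °C, 1443 genes differed at 3 h (14.3%), 875 higher (8.64%) and 568 lower (5.61%), and 383 when only these 2 groups were modelled. Without the first 1 h library, whose estimated depth was 4.75 M fragments, 928 were called. The 60.6% that were higher became 47.3% and 49.1% after trimmed-mean and median-ratio scaling. Of the 102 inflammatory genes 32 were higher at 3 h and 9 lower. Ccl5 had a mean of 1.38 ± 0.215 FPKM at 1 h and 28.3 ± 4.96 at 3 h (log2 difference 3.61, adjusted p = 7.6e-10), and Cxcl16 3.78 ± 1.28 and 17.8 ± 1.31 FPKM (2.01, adjusted p = 1.1e-09). Both chemokines were thus higher at the later time. Irf1 stood at 107.96, 121.45 and 101.34 FPKM at 1 h and was lower at 3 h (-1.45, adjusted p = 7.3e-08), as were Gadd45b (-1.10, adjusted p = 1e-12), Tnfaip3 (-0.80, adjusted p = 3.3e-07) and Rel (-0.56, adjusted p = 2.6e-05). Nfkbia was not called (-0.28, adjusted p = 0.141). Atf3 was at 33.05, 31.31 and 17.87 FPKM at 1 h, well above the libraries before and after (-1.95, adjusted p = 9.4e-10), and the orphan receptor gene Nr4a3 behaved alike (-1.63, adjusted p = 1.9e-05). Genes that had fallen by 3 h were in part still high at 1 h. Herpud1 had 228.45, 209.11 and 97.24 FPKM at 1 h, and was lower at 3 h by 1.79 on the log2 scale (adjusted p = 1e-08). Thbs1 was at 711 ± 73.2 FPKM at 1 h, near its unstimulated 723 ± 85 (difference between 3 h and 1 h -1.38, adjusted p = 4.4e-08). Irs1, by contrast, was at 7.24 ± 0.606 FPKM at 1 h and 7.37 ± 0.238 at 3 h, low at both times. The hours at 40 °C also differ here, 3 against 5. Rpl17-ps5, Il1rn, Slc7a2, U90926 and Dhrs3 were the other genes with the largest terms; U90926 (1.68, adjusted p = 0.00277) and the ribosomal pseudogene Rpl17-ps5, listed at 0 at 3 h, rest on values of a few FPKM.

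TNF-α and IL-1β could be compared at equal hours, since cells given either for 3 h had spent 5 h at 40 °C. Here 563 genes differed (5.56%), 313 higher (3.09%) and 250 lower (2.47%) with TNF-α, and 349 when only these 2 groups were modelled. Of the 102 inflammatory genes 40 were higher and 10 lower with TNF-α. All 3 NF-κB subunits were higher, with Relb at 60.5 ± 1.96 FPKM against 22.6 ± 1.57 with IL-1β (log2 difference 1.38, adjusted p = 8.1e-11). Tnfaip3 was at 82.07, 81.53 and 75 FPKM with TNF-α and at 19.78, 13.84 and 16.18 with IL-1β (2.21, SE 0.11, adjusted p = 1.7e-20). Icam1 was at 101 ± 12.8 and 21.5 ± 3.42 FPKM (2.19, adjusted p = 3e-11), and Ccl2 at 1655 ± 133 and 538 ± 83.8 FPKM (1.63, adjusted p = 5e-10). Ccl5 differed most of the positive terms, with 1.7, 0.83 and 3.59 FPKM after IL-1β (3.36, SE 0.37, adjusted p = 2.4e-09), followed by Egr1 (2.80), Cxcl2 (13.6 ± 1.77 against 1.26 ± 0.387 FPKM), Traf1 (2.60) and Csf2 (2.57). Cxcl5 went the other way, at 24, 32.75 and 17.97 FPKM with TNF-α and 273.04, 228.11 and 272.24 with IL-1β (-3.36, SE 0.23, adjusted p = 4e-15). Chemokines that attract neutrophils were split, since Cxcl1 (-1.16, adjusted p = 0.00099), like Cxcl5, was higher with IL-1β, and Cxcl3 (1.36, adjusted p = 4.5e-05), like Cxcl2, was higher with TNF-α. Also higher with IL-1β were Il6 (-1.08, adjusted p = 0.00388) and Lcn2 (-2.15, adjusted p = 5.2e-06), an iron-sequestering protein. The transcription factor gene Cebpd was lower with TNF-α than in unstimulated cells (-0.54, adjusted p = 0.00078) and stood at 57.27, 48.35 and 50.04 FPKM with IL-1β (-1.95, SE 0.12, adjusted p = 1.7e-16). Lyrm9 (-1.75) and Pnrc2 (-1.71) had the other large negative terms, and Pnrc2 was uneven with IL-1β, at 14.82, 56.36 and 119.9 FPKM.

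**Figure D5:**
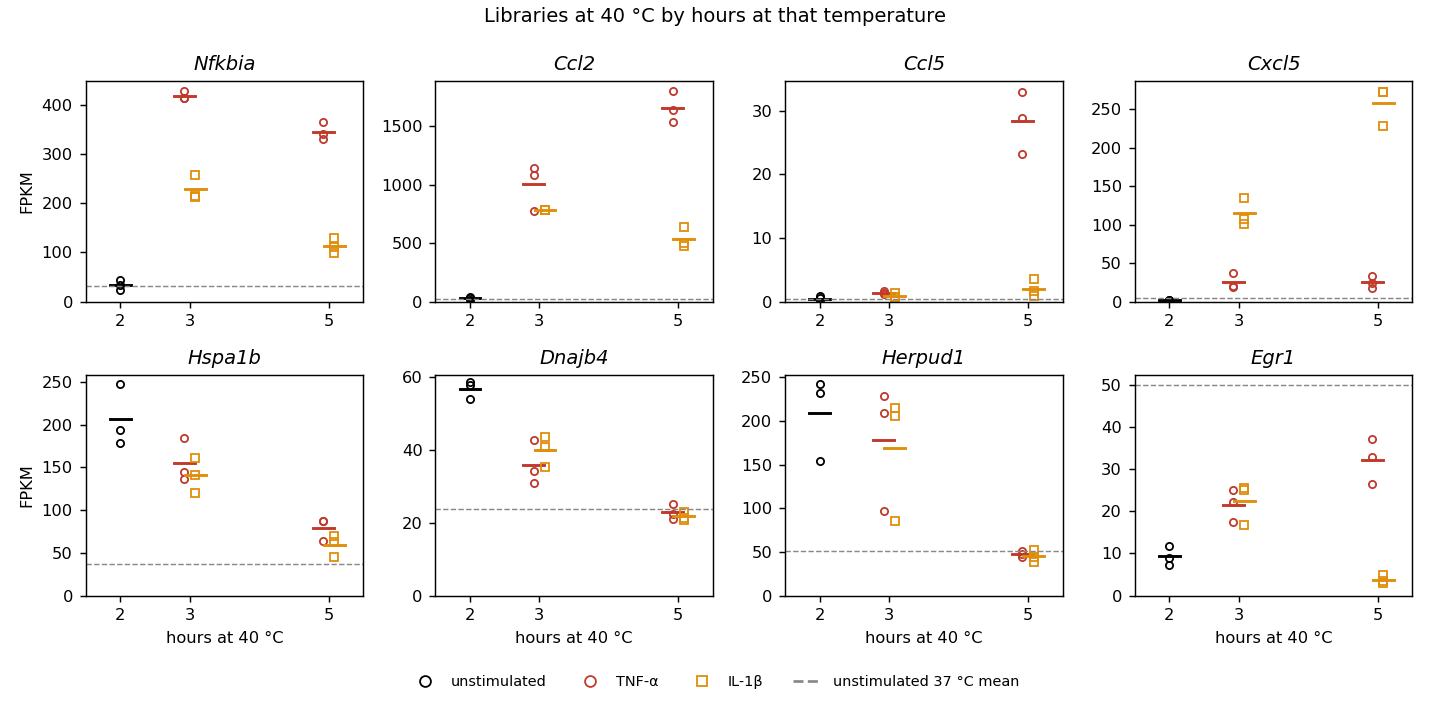
FPKM (y axes, linear and starting at 0) of 8 genes in each library at 40 °C against the hours spent at that temperature (x axes), with bars for means of 3 libraries and a dashed line for the mean of unstimulated cells at 37 °C. Nfkbia, Ccl2 and Ccl5 are highest with TNF-α and Cxcl5 with IL-1β, whereas Dnajb4 and Herpud1 are low at 5 h with either cytokine, Herpud1 at 47.7 and 45.4 FPKM.

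Between the cytokines, calls in the stress lists were about as rare as over all genes (5.56%), so nothing is read from their number. Of the 23 heat shock genes 1 was called, Hspa1b, which was higher with TNF-α (0.42, SE 0.12, adjusted p = 0.0269) at 79.1 ± 13.5 against 59.2 ± 12.7 FPKM. Hspa1a was at 2.07, 1.35 and 2.11 FPKM with IL-1β, Dnajb4 at 22.97, 21.42 and 20.79 and Herpud1 at 52.58, 44.87 and 38.68, values beside those with TNF-α. The difference of Dnajb4 was 0.07 (95% confidence interval -0.17 to 0.31, adjusted p = 0.88) and that of Herpud1 0.08 (interval -0.33 to 0.49, adjusted p = 0.931). None of the 17 listed genes of the endoplasmic reticulum was called by limma, and 0 had an unadjusted p below 0.05. The 5 h at 40 °C are common to these libraries, and what cytokine and hours each contributed cannot be told apart without unstimulated cells at 5 h. Other falls did differ: Id2 was at 21.6 ± 1.58 FPKM with TNF-α and 61 ± 0.352 with IL-1β (-1.46, SE 0.12, adjusted p = 1.5e-12), close to its unstimulated 68 ± 6.4. Dhrs3 (-1.33, adjusted p = 4.4e-12), Smad6 (-0.97), Smad9 (-0.93), Fam13c (-0.92), Pdgfrb (-0.76) and Irs2 (-0.66, adjusted p = 2.3e-05) were lower with TNF-α as well, and 7 of the 16 growth factor and insulin genes had such a lower level. Thbs1 (-0.06, adjusted p = 0.941) and Edn1 (0.00) were not called. All 5 comparisons share the TNF-α libraries at 40 °C, so their results are not independent of each other.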

How the data were processed

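Expression values in FPKM were deposited by the authors as 1 table of 10122 genes in 60 libraries of total RNA. According to the submitters' processing notes the tools were edgeR, RSEM 1.3.3 and STAR 2.7.11b and the assembly was GRCm39, with no role stated for any. All 10122 gene identifiers are found in GENCODE M21, so no coordinates are given. Symbols are those of the table, which holds no read counts.

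Values were analysed as log2(FPKM + 1) in limma 3.58.1 (R 4.3.3), with 1 mean for each of the 20 groups and variances moderated toward a trend on mean expression (residual degrees of freedom 40, prior 4.37). A minimum of 1 FPKM in 3 libraries removed no gene. For each of 5 comparisons two-sided p-values were adjusted by Benjamini and Hochberg over all 10122 genes, and values below 0.05 made a call. Intervals are 95% confidence intervals of the model. The test was tried on simulated data. Depth was estimated by setting the low FPKM values of 963 genes with a single transcript near whole multiples of 1 fragment. By library, 81.4 to 94.1% then lay within 0.15 of a whole number, against 30% by chance, which is no independent check. Tests measure the spread between the 3 libraries of each group, all from 1 line.

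The text names the 14 genes that rose most and the 14 that fell most, among those whose replicates do not overlap, up to 4 called members per list, the 5 largest positive and 5 largest negative called terms of the differences from 37 °C, 1 h and IL-1β, and a set of genes named whatever their values. Where 5 or fewer members counted are named outside this rule, they were chosen after their values were seen. The 23 lists hold 471 genes, 338 measured. The groups compared, the members and the lists were chosen with earlier results of these data known. Alternatives were other added constants, a filter at 5 FPKM, 2 scalings, other variance settings, fewer groups, the replicate number as a block and each library left out in turn.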

Additional observations from a re-analysis of the deposited data

Results flagged for a closer look

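The change from unstimulated cells to TNF-α for 3 h differed between temperatures, by an interaction term, in the following named genes. Each term also holds the 3 further hours at 40 °C, which cannot be told apart from TNF-α here. Against 37 °C the term was negative for Herpud1 (-2.52), Atf3 (-1.82), Hspa1b (-1.67), Ddit3 (-1.63), G0s2 (-1.62), Chac1 (-1.61), Hspa1a (-1.53), Dnajb4 (-1.05), Dnajb1 (-0.93) and Bag3 (-0.88). It was positive for Egr1 (3.36), Fhod1 (0.82), L3mbtl2 (0.81), Zfp317 (0.73) and Gramd4 (0.68), all on the log2 scale. Unstimulated levels differed between the temperatures in several of these genes, with Hspa1b at 207 FPKM at 40 °C and 37 FPKM at 37 °C, and the part of that in the differences was not tested.

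Against 34 °C negative terms belonged to the stress genes Herpud1 (-2.41), Ddit3 (-1.79), Hspa1b (-1.57), Hspa1a (-1.39), Dnajb4 (-1.34), Atf3 (-1.32), Dnajb9 (-0.89), Bag3 (-0.84) and Dnajb1 (-0.8). G0s2 (-1.3), Csf2 (-1.15), Tnfaip3 (-0.78), Dhrs3 (-0.75), Fam13c (-0.71) and Rbm3 (-0.66) were negative as well. Positive terms belonged to Egr1 (1.82), C3 (1.15), Tap2 (1.09), Gramd4 (0.94), Fhod1 (0.76), Zfp317 (0.66) and L3mbtl2 (0.62).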

How the results depend on the processing

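The count for TNF-α against unstimulated cells, 1950, stayed between 1329 and 2197 over all alternatives. Models of only the groups compared called fewer genes: 4 for the difference from 37 °C, 64 for that from 34 °C, 383 against 1 h and 349 against IL-1β. The labels do not say that a replicate number marks a shared culture, and same-numbered libraries of TNF-α and unstimulated cells at 40 °C deviated together with correlations of only 0.0312 to 0.0659; the second TNF-α library was closer to the first unstimulated one (0.0409) than to its own number, whereas against TNF-α for 1 h and IL-1β each was closest to its own. With the replicate block there were 2197 calls against unstimulated cells, 61 for the difference from 37 °C, among them Ier3 of the inflammatory lists, and 330 for that from 34 °C. With the replicate block in only the groups compared there were 614 lower genes against unstimulated cells, and 6, 76, 242 and 335 calls in the other 4 comparisons, in the order above. Leaving out 1 library gave 23 to 39 calls for the difference from 37 °C, 118 to 191 for that from 34 °C, 928 to 1515 against 1 h and 413 to 455 against IL-1β. The cause of these shifts was not tested. Over named genes and alternatives of the comparison with unstimulated cells, 1936 values kept their status, called or not called. A call was lost in 66 and gained in 6. None turned direction where either fit called the gene, and turns of genes called in neither were not counted. The calls lost were of 18 genes, whose changes were under 1 on the log2 scale where lost, except that of Il1rn at 1.53. An FPKM of 1 rests on few fragments, so values near that level are coarse.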

Other observations

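Genes outside the named set also differed between the 40 °C and 37 °C responses, in terms that again include the 3 further hours at 40 °C. Gdf15, a stress-induced cytokine, went from 61.7 ± 5.29 to 43.9 ± 9.97 FPKM at 40 °C and from 25.2 ± 7.14 to 40.5 ± 3.22 at 37 °C (mean ± SD, n = 3, difference -1.20, SE 0.22, adjusted p = 0.00168 in limma). Nupr1, a stress-induced chromatin protein gene, stood at 39.3 ± 3.36 and 39.6 ± 4.74 FPKM at 40 °C and at 30.1 ± 5.88 and 61.7 ± 5.11 at 37 °C (difference -1.02, adjusted p = 0.00414). Znfx1, an RNA sensor, was at 30.6 ± 2.62 and 27.3 ± 2.75 FPKM at 40 °C and at 10.7 ± 1.21 and 22.9 ± 4.18 at 37 °C (difference -1.18, adjusted p = 0.00018). In these 3 genes the unstimulated level was higher at 40 °C than at 37 °C. Tsc22d3, which encodes the glucocorticoid-induced GILZ, was at 20.6 ± 1.41 and 9.13 ± 1.26 FPKM at 40 °C and at 15.2 ± 1.56 and 11.7 ± 1.02 at 37 °C (difference -0.75, adjusted p = 0.0355). Urb2 and Ccdc86, which serve ribosome assembly, had larger rises at 40 °C, with differences of 0.53 (adjusted p = 0.00414) and 0.61 (adjusted p = 0.0036). Ccdc86 went from 8.22 ± 0.871 to 19.2 ± 0.598 FPKM at 40 °C and from 10.7 ± 1 to 15.8 ± 0.499 at 37 °C. These genes were picked from the 31 after their values were seen.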
